A study of Mus musculus with 13 samples.

Results

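Fezf2 is a zinc-finger protein of the embryonic forebrain that controls transcription and is best known for specifying the subcerebral projection neurons of layer 5, whose axons reach the brainstem and spinal cord. It binds DNA through its zinc fingers, and an Engrailed-type repressor motif lets it recruit Groucho/TLE corepressors. Chromatin immunoprecipitation and sequencing (ChIP-seq) of a tagged transcription factor gives peaks, which are stretches of the genome where DNA fragments brought down with the tag pile up above a control.

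The regions described here are the peaks called with the construct Fezf2-E-V5 that share no base with any peak called with the construct Fezf2-A-V5. Of 21338 Fezf2-E-V5 peaks, 10023 (47.0%) met this rule, among 39554 peaks in both lists. The other 11315 Fezf2-E-V5 peaks overlapped at least 1 bp of a Fezf2-A-V5 peak, and 7077 of 18216 Fezf2-A-V5 peaks (38.9%) overlapped no Fezf2-E-V5 peak. The regions were selected on the peak calls of both lists, so their strength, width and distance to Fezf2-A-V5 peaks are given as descriptions, with no test.

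The series also holds 10 RNA-seq libraries, which were not used here. The 3 ChIP-seq libraries were made from N2A, a mouse neuroblastoma cell line, with fixation 48 h after plasmids were transfected. The groups were cells given Fezf2-A-V5, cells given Fezf2-E-V5 and V5 control cells, with 1 library each, and the precipitating antibody recognised the V5 tag. All the plasmids were of the pCAG type, so Fezf2 was supplied from a strong general promoter in a tumour line rather than from its own locus in cortical neurons. The labels do not say what sets construct A apart from construct E. The library titled CAG-V5 is described by its submitters as an input, and the header of the Fezf2-E-V5 list names that input as the control.

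With 1 library per construct there is no replicate spread, and no difference below was tested between conditions. The Fezf2-E-V5 library had 21959213 tags after filtering and the control 24520589. The depth of the Fezf2-A-V5 library is not stated in its list, which has lost its parameter lines. In the Fezf2-E-V5 list the lowest quotient of pileup and fold enrichment, 1.67, equalled the genome-wide background computed from the header (tags times fragment size over genome size, also 1.67), and the smallest peak width equalled the fragment size, 142 bp. In the Fezf2-A-V5 list the lowest quotient was 1.40 and the smallest width 176 bp. If that list was made with the same genome size and its fragment size was likewise the smallest width, its library had about 14800000 tags. The part of this depth gap in the number of Fezf2-E-only peaks was not tested.

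Fezf2-E-only peaks were weaker and narrower than the Fezf2-E-V5 peaks shared with construct A. Pileup, the number of fragments stacked at a peak's summit, ran from 9 to 215 with a median of 16 (quartiles 14 and 19). In the shared Fezf2-E-V5 peaks it ran from 9 to 544 with a median of 20 (quartiles 16 and 25). Fold enrichment over the control, a ratio given by the authors' peak caller, ran from 1.54 to 19.0 with a median of 6.33 (95% interval 6.31 to 6.38). In the shared peaks it ran from 1.26 to 46.6 with a median of 7.13 (95% interval 7.07 to 7.20). The distributions overlapped over most of their range, and the gap was widest in the upper tail: the 99th percentile of fold enrichment was 12.0 in Fezf2-E-only peaks and 16.2 in shared ones.

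The Fezf2-A-V5 list showed the same order. Fezf2-A-only peaks had a median pileup of 15, a median fold of 7.02 and a median width of 235 bp, against 18, 7.93 and 325 bp in the Fezf2-A-V5 peaks that overlapped a Fezf2-E-V5 peak. Lower strength and width than the shared peaks were therefore not particular to Fezf2-E-only peaks.

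**Figure D1:**
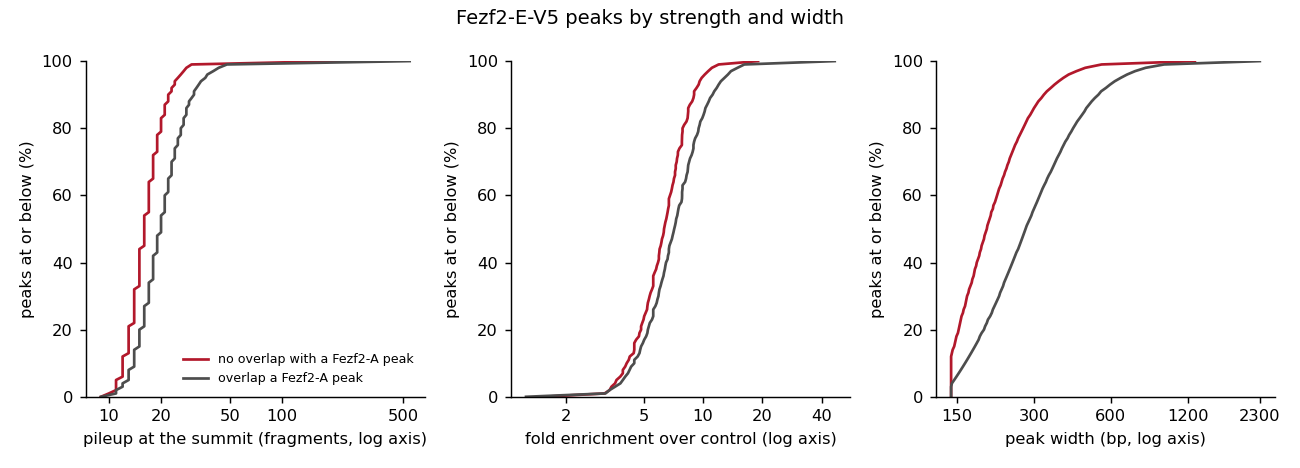
Cumulative share of peaks (y axis, %) at or below each pileup, fold enrichment and width (x axes, log scale) for the 10023 Fezf2-E-only peaks (red) and the 11315 Fezf2-E-V5 peaks that overlap a Fezf2-A-V5 peak (grey). Red lies to the left of grey over most of each panel, with medians of 16 against 20 for pileup, 6.33 against 7.13 for fold enrichment and 196 against 278 bp for width.

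Width differed in the same direction. Fezf2-E-only peaks were 142 to 1282 bp wide with a median of 196 bp (95% interval 194 to 197), while shared ones reached 2303 bp with a median of 278 bp (95% interval 276 to 281). The narrowest width that the list holds, 142 bp, was that of 1247 Fezf2-E-only peaks (12.4%) and of 418 shared peaks (3.69%). Peaks of at least 500 bp numbered 166 (1.66%) and 1408 (12.4%). A wider peak overlaps another list more easily, so width is not independent of the rule. Among peaks with a pileup of 15 to 17 the median width was 194 bp in 3208 Fezf2-E-only peaks and 239 bp in 2359 shared ones. Matching on pileup does not remove the easier overlap of wider peaks, so this gap is not independent of the rule either. The Fezf2-E-only peaks together covered 2216229 bp, 37.6% of the length of all Fezf2-E-V5 peaks.

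The share of Fezf2-E-only peaks fell with peak strength. Among the 10% of Fezf2-E-V5 peaks with the lowest pileup 70.1% were Fezf2-E-only (95% interval 68.1 to 72.0), and among the 10% with the highest pileup 11.3% were (95% interval 9.99 to 12.7). By width the share went from 73.4% in the narrowest decile to 11.6% in the widest. By fold enrichment it was flatter, between 50.4% and 56.1% in the lower 7 deciles, and then went down to 41.0%, 36.5% and 19.6%. These intervals are exact binomial (Clopper-Pearson) and cover the counting of peaks only. Peaks of equal value at the edge of a decile, such as those with a pileup of 13, were split by genome order. The deciles are therefore not set by value alone.

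**Figure D2:**
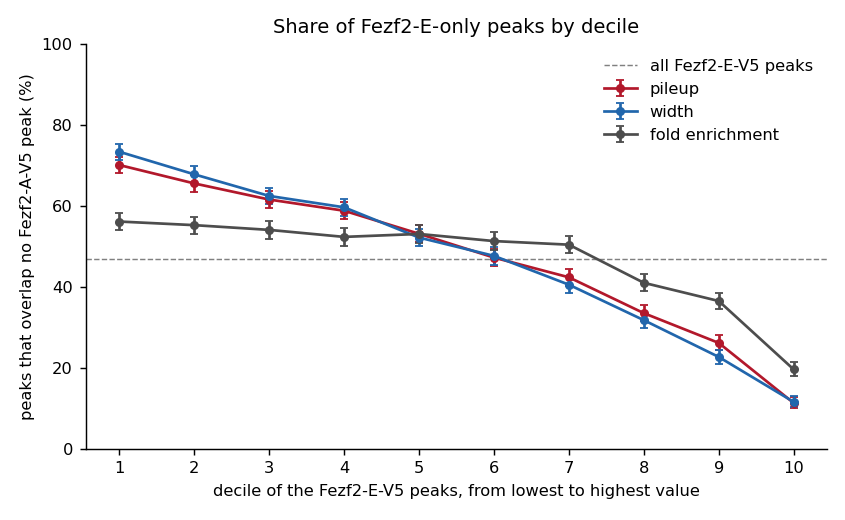
Share of Fezf2-E-V5 peaks that overlap no Fezf2-A-V5 peak (y axis, %) in each decile of the list (x axis) ranked by pileup (red), width (blue) or fold enrichment (grey). Bars are exact binomial 95% intervals and the dashed line marks the share in all peaks. The pileup and width series fall from above 70% to about the same share in the last decile, 11.3% and 11.6%.

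A minority of the Fezf2-E-only peaks were far above the calling limit, which was a q of 0.01. The −log10 q ran from 2.01 to 29.2 with a median of 5.26 in them, against a median of 7.42 in shared peaks. It was at least 10 in 653 Fezf2-E-only peaks (6.52%), against 3292 shared ones (29.1%), and at least 20 in 19 against 527. Fezf2-A-only peaks had similar values in their own list, with a median of 5.29, at least 10 in 523 (7.39%) and at least 20 in 19. Of the 653, 528 (80.9%) lay more than 1000 bp from any Fezf2-A-V5 peak and 343 (52.5%) more than 10000 bp away. Over all Fezf2-E-only peaks these shares were nearly the same, 78.9% and 53.2%.

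The Fezf2-E-only peak of highest fold enrichment, at chr3:9558780-9559075 (mm9), had a fold of 19.0, a pileup of 37 and a −log10 q of 29.2, and lay 14567 bp from the nearest Fezf2-A-V5 peak. The next, at chr9:82709044-82709335, had a fold of 17.97 and a pileup of 32, with the nearest Fezf2-A-V5 peak 151416 bp away. At chr1:78215604-78215851 the fold was 17.1, with the nearest Fezf2-A-V5 peak 76995 bp away and another Fezf2-E-only peak at 2700 bp. With 4 peaks tied at a fold of 15.0, 13 peaks made up the 10 highest ranks, and 11 of the 13 were more than 10000 bp from any Fezf2-A-V5 peak. Over all Fezf2-E-only peaks 53.2% lay that far away, and of the 653 with a −log10 q of at least 10 it was 52.5%. The others of fold above that tie were at chr2:8550201-8550457, chr12:117823598-117823833, chr3:19062898-19063198, chr5:34553058-34553254, chr11:96934089-96934264 and chr5:101104003-101104312. The tied peaks were chr1:95700011-95700371, chr4:49520141-49520395, chr12:113755201-113755414 and chr13:22010640-22011052, the last 2 at 8551 and 912 bp from a Fezf2-A-V5 peak. Across the 13 the pileup was 25 to 37 and the width 176 to 413 bp. The strongest shared peak had a fold of 46.6, above each of these.

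Ranked by pileup, a different set came first. The highest pileup was 215, at chr11:3059780-3059932, where the fold was only 2.38. The next were 204 at chr2:98503925-98504156 (fold 1.65), 148 at chrX:109484428-109484744 (fold 1.70), 129 at chr9:3004577-3004726 (fold 3.06) and 123 at chr9:3015196-3015440 (fold 1.54). In all 5 the quotient of pileup and fold, a measure of the background there, was 42.2 to 124, against a median of 2.68 over all Fezf2-E-only peaks. High fragment counts at these places were thus high in the control as well. In all, 16 Fezf2-E-only peaks had a pileup of at least 50, and 13 of them had a fold under 3. At that pileup, a fold under 3 was found in 15 of 15 Fezf2-A-only peaks and 11 of 102 shared Fezf2-E-V5 peaks. Within 10000 bp of 12 of the 16 Fezf2-E-only peaks there was a Fezf2-A-V5 peak, against 46.8% over all Fezf2-E-only peaks. Of the 16, 6 sat together on chromosome 11 between 3059780 and 3094281.

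The widest Fezf2-E-only peak was 1282 bp, at chr10:115023589-115024870, with a pileup of 23 and a fold of 8.56. The others of the 5 widest were chr3:51049161-51050399 (1239 bp), chr13:21325376-21326398 (1023 bp), chr3:117571492-117572428 (937 bp) and chr8:13708413-13709303 (891 bp), with folds of 5.02 to 9.93. The last of these ended 85 bp from a Fezf2-A-V5 peak, and the one on chromosome 10 lay 30711 bp from any. Width and fold enrichment therefore picked out different peaks, with no region in both sets.

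Distances from a Fezf2-E-only peak to the nearest Fezf2-A-V5 peak fell into a broad near shoulder and a farther main group. The median was 12153 bp (95% interval 11425 to 12815), with quartiles at 1443.5 and 41545.5 bp and a maximum of 6102134 bp. The interval covers the counting of peaks only: the median was 18743 bp with Fezf2-A-V5 peaks limited to a −log10 q of at least 5, and 19150 bp with both lists so limited. Within 500 bp lay 1386 (13.8%), within 1000 bp 2115 (21.1%), within 10000 bp 4687 (46.8%) and within 100000 bp 8990 (89.7%). Fezf2-A-only peaks stood about as far from Fezf2-E-V5 peaks, at a median of 12483 bp (95% interval 11704 to 13247), with 21.5% within 1000 bp. By distance class, the median fold was 6.29 within 100 bp, 6.08 above that up to 500 bp, 6.21 from 501 to 1000 bp and 6.24 from 1001 to 10000 bp. It was 6.39 from 10001 to 100000 bp, 6.70 from 100001 to 1000000 bp and 7.07 in the 55 peaks beyond. The median fold was thus higher in the 3 farthest classes than in the 4 nearest, while the median pileup was 15 in the 2 farthest classes and 16 in the others.

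**Figure D3:**
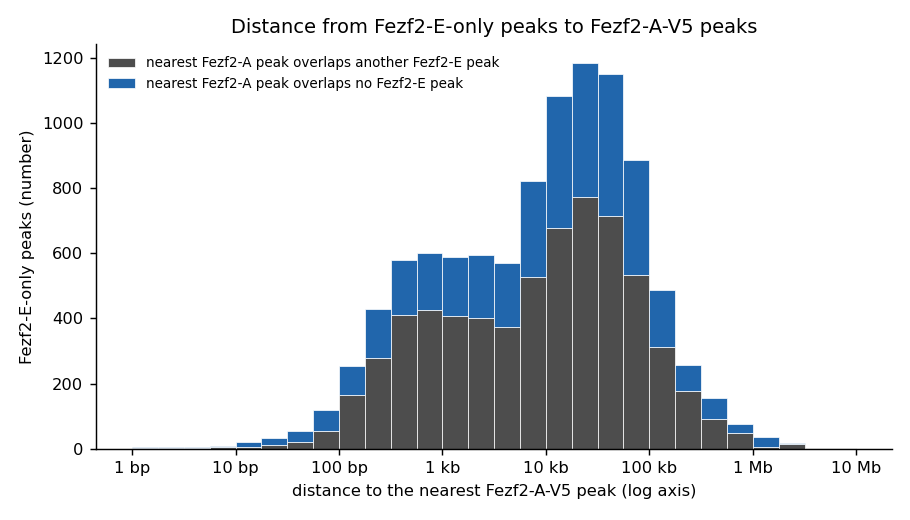
Number of Fezf2-E-only peaks (y axis) by distance to the nearest Fezf2-A-V5 peak (x axis, log scale), split by whether that Fezf2-A-V5 peak overlaps another Fezf2-E-V5 peak (grey) or none (blue). The counts rise to a shoulder below 10 kb and then to a maximum between 10 kb and 100 kb, a class that holds 4303 of the 10023 peaks.

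Of the 2115 Fezf2-E-only peaks within 1000 bp of a Fezf2-A-V5 peak, 1386 (65.5%) were next to one that another Fezf2-E-V5 peak overlapped. These Fezf2-E-only peaks are thus neighbours of a place called with both constructs. The remaining 729 (34.5%) were next to a Fezf2-A-only peak, so that each list had a call there without a common base. Over the whole Fezf2-A-V5 list 61.1% of peaks overlapped a Fezf2-E-V5 peak. Farther out, the nearest Fezf2-A-V5 peak was a shared one for 66.4% of Fezf2-E-only peaks at 1001 to 10000 bp. This share was 62.7% at 10001 to 100000 bp, 64.1% at 100001 to 1000000 bp and 41.8% in the 55 peaks beyond. The 65.5% was therefore not particular to the peaks within 1000 bp. Within 100 bp the nearest Fezf2-A-V5 peak was a Fezf2-A-only peak for 146 of 255, a count that the list's own spacing limits, since no Fezf2-E-V5 peak had another within 100 bp.

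At the edge of the rule, 4 Fezf2-E-only peaks directly abutted a Fezf2-A-V5 peak, a distance counted as 1 bp. They were chr12:9016704-9016848 (fold 4.47), chr14:17198794-17199028 (fold 7.20), chr12:36768544-36768686 (fold 5.57) and chr5:100860074-100860215 (fold 7.63). Just outside the rule, chr17:27772075-27772356 (fold 3.16) and chr10:83900524-83900699 (fold 7.51) overlapped a Fezf2-A-V5 peak by 2 bp, and 6 peaks did so by 3 bp, among them chr11:22865818-22865976 (fold 7.39). The 121 Fezf2-E-only peaks within 50 bp of a Fezf2-A-V5 peak had a median fold of 6.33, and the 200 shared peaks with an overlap under 50 bp one of 5.96, with a median pileup of 16 in both.

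At the other end, 55 Fezf2-E-only peaks lay more than 1000000 bp from a Fezf2-A-V5 peak. The farthest, 6102134 bp away, was the peak on chromosome X of high background named above. The others of the 5 farthest were chr1:104524783-104524925 at 3278023 bp (fold 6.70), chr7:94262196-94262407 at 2290500 bp (fold 8.37), chr3:113333010-113333274 at 2254118 bp (fold 4.47) and chr3:46695041-46695234 at 2203051 bp (fold 6.88). The pileups of these 4 were 14 to 24, where the median over all Fezf2-E-only peaks was 16 and the 90th percentile 22.

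Counting only their own class, most Fezf2-E-only peaks had no neighbour within 10 kb, and a minority sat in tight groups. Another Fezf2-E-only peak lay within 1 kb of 1298 of them (13.0%), within 10 kb of 3449 (34.4%) and within 100 kb of 8128 (81.1%), at a median spacing of 24859 bp. Shared Fezf2-E-V5 peaks were closer to each other, with 41.2% within 10 kb, and Fezf2-A-only peaks farther apart, with 22.8%. The classes also differ in size, with 10023 Fezf2-E-only, 11315 shared and 7077 Fezf2-A-only peaks, and the part of size in these shares was not tested. With shared Fezf2-E-V5 peaks counted too, 5325 Fezf2-E-only peaks (53.1%) had another Fezf2-E-V5 peak within 10000 bp. Counting peaks of either list, 3987 Fezf2-E-only peaks (39.8%) had no other peak within 10000 bp and 474 (4.73%) none within 100000 bp. The 3987 had a median fold of 6.60 (quartiles 5.21 and 7.82) and the others 6.21 (quartiles 5.02 and 7.45), with a median pileup of 16 in each.

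**Figure D4:**
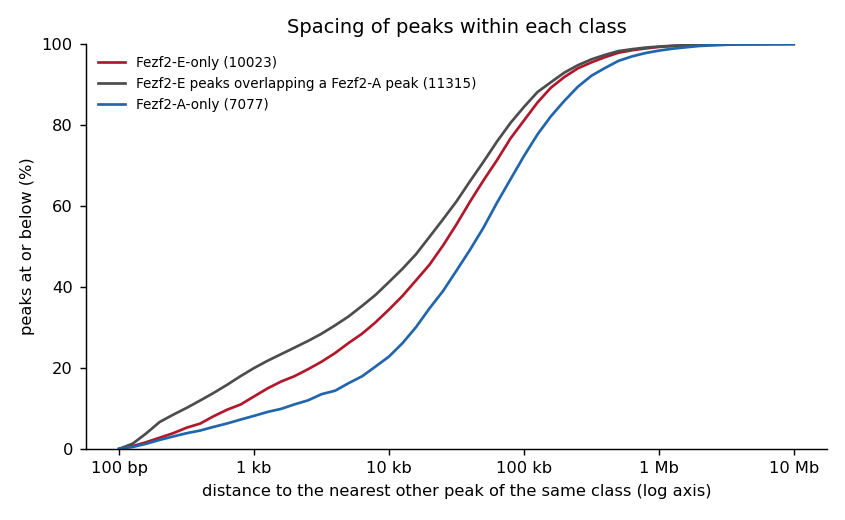
Cumulative share of peaks (y axis, %) with another peak of the same class within each distance (x axis, log scale) for Fezf2-E-only peaks (red), Fezf2-E-V5 peaks that overlap a Fezf2-A-V5 peak (grey) and Fezf2-A-only peaks (blue). At 10 kb the lines stand at 34.4%, 41.2% and 22.8%.

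Joined wherever neighbours were at most 10 kb apart, the Fezf2-E-only peaks formed 8052 groups. Of these, 6574 were lone peaks, 1133 were pairs and 345 held 3 or more, 1183 peaks in all. Lone means without another peak of the same class that near. This held for 65.6% of Fezf2-E-only, 58.8% of shared Fezf2-E-V5 and 77.2% of Fezf2-A-only peaks. In 182 of the 345 no Fezf2-A-V5 peak lay between the first and the last peak. Groups of 5 or more numbered 28, of which 5 were free of Fezf2-A-V5 peaks. No such count was made for other classes or for other spans of like length. Whether these numbers are high or low was therefore not tested.

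The largest group held 13 Fezf2-E-only peaks at chr8:59790888-59816663, a span of 25776 bp, with 5 shared Fezf2-E-V5 peaks and 7 Fezf2-A-V5 peaks among them. Its strongest Fezf2-E-only peak, chr8:59795891-59796206, had a fold of 12.2 and a pileup of 31, and the weakest had a fold of 4.44. The second group, at chr13:22000638-22033133, held 12 over 32496 bp with folds of 3.16 to 15.0, the highest at chr13:22010640-22011052. It had 4 shared Fezf2-E-V5 peaks and 7 Fezf2-A-V5 peaks within it. The third, at chr12:88221130-88251482, held 8 over 30353 bp with folds of 3.63 to 10.2, beside 8 shared Fezf2-E-V5 peaks. All 3 of the largest groups were thus places where both constructs gave several peaks.

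Chosen after its values were seen, the largest group with no Fezf2-A-V5 peak inside was at chr11:101277941-101294952. It held 7 Fezf2-E-only peaks over 17012 bp. Their folds were narrow in range, 3.67 to 6.33, with pileups of 12 to 23 and widths of 142 to 495 bp. The nearest Fezf2-A-V5 peak outside it was 927 bp from its first peak. Of the 7, the strongest by −log10 q was chr11:101287006-101287500, at 6.87.

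On a coarser scale, 1740 of the 1988 windows of 1 Mb that held any peak of either list held a Fezf2-E-only peak, with a median of 4 where there was any. Windows with 10 or more numbered 326 and held 4515 Fezf2-E-only peaks. The fullest, also picked after their values were seen, were chr8:59000001-60000000 and chr10:79000001-80000000 with 30 each. The window on chromosome 8, which contains the largest group above, also had 20 shared Fezf2-E-V5 peaks. It held 23 Fezf2-A-V5 peaks, of which 2 were Fezf2-A-only. The one on chromosome 10 had 30 shared Fezf2-E-V5 peaks and 49 Fezf2-A-V5 peaks, of which 19 were Fezf2-A-only. Dense windows of Fezf2-E-only peaks were thus in these cases dense in shared peaks too.

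Fezf2-E-only peaks were found on each of the 20 chromosomes in the lists, 1 to 19 and X. Chromosomes 1 (799), 11 (795), 10 (769) and 2 (757) held the most, and X the fewest at 74. Per Mb between the first and last peak, chromosome 19 was densest at 7.01 and chromosome 11 next at 6.71, while chromosome 14 had 1.87 and X 0.463. Those sparse chromosomes were also sparse in shared Fezf2-E-V5 peaks, with 2.30 per Mb on chromosome 14 and 0.683 on X.

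Set against the Fezf2-E-V5 peaks of the same chromosome, the share of Fezf2-E-only peaks was lowest on chromosome 15, at 35.2% (385 of 1093, 95% interval 32.4 to 38.1). It was highest on chromosome 16, at 53.9% (408 of 757, 95% interval 50.3 to 57.5). The interval lay wholly below the genome's 47.0% on 5 chromosomes (2, 6, 7, 11 and 15) and wholly above it on 7 (1, 5, 10, 12, 16, 18 and 19). These intervals treat peaks as independent, which clustered peaks of 1 library are not.

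The balance between the classes also varied by chromosome. There were 1.42 Fezf2-E-only peaks for each Fezf2-A-only peak over all chromosomes, from 0.627 on X, 0.776 on 14, 0.830 on 7, 0.842 on 15 and 0.850 on 4 up to 2.22 on chromosome 1 and 2.25 on chromosome 19. Fezf2-A-only peaks thus outnumbered them on those 5 chromosomes and not on the other 15. The whole lists also held fewer Fezf2-E-V5 than Fezf2-A-V5 peaks there. For each Fezf2-A-V5 peak there were 0.817 Fezf2-E-V5 peaks on X, 0.892 on 14 and 0.938 on 7. The ratio was 0.961 on 15 and 0.932 on 4, against 1.17 over all chromosomes. This is not a separate observation, since overlapping peaks were nearly equal in number in the 2 lists, 11315 and 11139. With near-equal overlapping counts, the list with fewer peaks also has fewer peaks of its own. Chromosome 15 combined the lowest Fezf2-E-only share with 7.07 shared Fezf2-E-V5 peaks per Mb, second to chromosome 11 at 8.45, and its Fezf2-E-only peaks had the shortest median distance to a Fezf2-A-V5 peak, 4947 bp. Signal levels moved with chromosome as well: the median pileup of Fezf2-E-only peaks was 18 on chromosomes 8 and 10 and 14 on 14 and X, whereas the median fold was 5.90 and 5.81 on the former and 7.20 and 7.03 on the latter. Higher pileup thus went with lower fold on these 4 chromosomes.

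**Figure D5:**
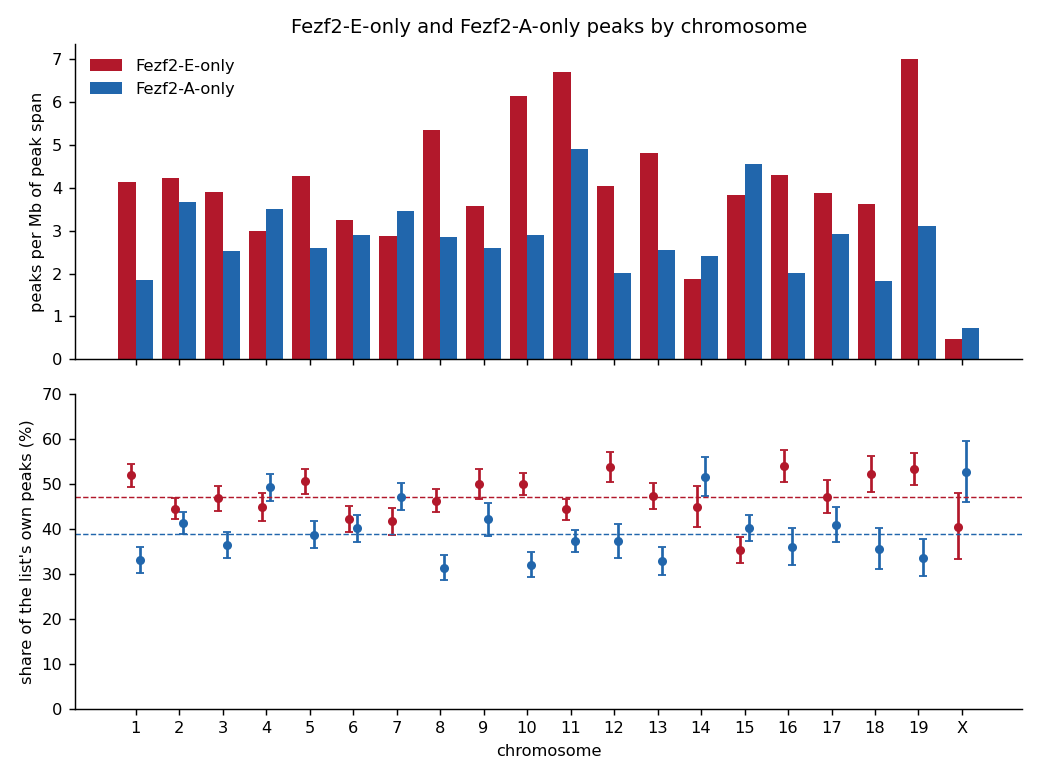
Upper panel, Fezf2-E-only (red) and Fezf2-A-only (blue) peaks per Mb between the first and last peak of each chromosome (y axis). Lower panel, Fezf2-E-only peaks as a share of Fezf2-E-V5 peaks and Fezf2-A-only peaks as a share of Fezf2-A-V5 peaks (y axis, %), with exact binomial 95% intervals and dashed lines at the genome-wide shares. Blue bars exceed red ones on chromosomes 4, 7, 14, 15 and X, and the lowest red point is 35.2% on chromosome 15.

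Summits lay near the middle of the Fezf2-E-only peaks, at a median of 48.2% of the width from the lower coordinate, as in shared peaks (48.7%). The peaks were not assigned to genes, promoters or sequence motifs, because a genome and annotation of the mm9 build were not used here.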

How the data were processed

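ChIP-seq peaks were analysed for 1 Fezf2-E-V5 and 1 Fezf2-A-V5 library of N2A cells. For Fezf2-E-V5, the authors called peaks with MACS 2.0.9 on mm9 reads against the control (q at most 0.01, 142 bp fragments, broad calling off), per the file headers. The header gives a tag size of 105 bp, whereas the labels give reads of 75 bp. The Fezf2-A-V5 list carries no such lines, and the submitters' processing notes name MACS2 2.0.9 and mm9 for the series. The deposited measures are a pileup signal (fragments at the summit), a ratio of enrichment over the control (fold), and the −log10 of a p and of a q. In the Fezf2-A-V5 list the names of the last 2 measures are damaged and were taken from the column order of the other list.

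Overlaps of 1 bp or more were found with bedtools 2.31.1, and distances run edge to edge (1 bp for abutting peaks). The steps were checked on simulated peaks. Intervals of medians and shares are exact binomial at 95% and cover counting of peaks only. The regions named are the 10 of highest fold (13 with ties), the 5 of highest pileup, the 5 widest, the 5 farthest from and the 4 nearest to a Fezf2-A-V5 peak, 3 of the smallest overlaps and the 3 largest groups. The regions and rules were chosen with earlier results of these data known. Other overlaps, thresholds and distances were tried as alternatives.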

Additional observations from a re-analysis of the deposited data

How the results depend on the processing

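The number of Fezf2-E-only peaks stayed within 1.5 times the reported one except with Fezf2-E-V5 peaks limited to a −log10 q of at least 5 or 10, at 5552 and 653, where fewer peaks enter. The share of Fezf2-E-V5 peaks was 38.9% and 16.6% at those limits and 44.9% at a fold of at least 5. It was 52.8% where a Fezf2-A-V5 peak had to cover at least 50% of the peak, 53.0% where it had to contain the summit, 40.5% and 37.1% where one within 500 or 1000 bp counted as shared, 57.0% with Fezf2-A-V5 peaks of −log10 q at least 5, and 48.7% with both lists so limited. In that last setting the median fold was 7.44, the median width 209 bp, the median distance to a Fezf2-A-V5 peak 19150 bp, and 26.7% had another within 10 kb. The median width was 202 bp under the 50% and the summit rule and 203 bp with stricter Fezf2-A-V5 peaks. Median distances were 8349 bp (50% rule), 8289 bp (summit), 17327 bp (500 bp) and 18743 bp (stricter Fezf2-A-V5 peaks), and the shares with another within 10 kb were 38.0%, 37.7%, 29.6% and 39.5% in the same order. At 1 kb and 100 kb in place of 10 kb that share was 13.0% and 81.1%. On chromosome 15 the Fezf2-E-only share was 27.5% at a −log10 q of at least 5, still the lowest, while chromosome 12 was then highest at 46.7%. All peaks lay on numbered chromosomes or X and no 2 Fezf2-E-V5 peaks were within 100 bp, so these 2 alternatives changed no value. No paired analysis was possible because each construct had 1 library and no result comes from a test. The part of depth in which weak peaks pass in either list was not tested.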
